A study of Homo sapiens with 8 samples.

Results

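RNA-seq libraries of 4 single-cell clones of KCL-22 were set against libraries of 3 drug-resistant KCL-22 populations, 7 of the 8 libraries of the series, with the vehicle-treated population left out. KCL-22 is a human cell line from chronic myeloid leukemia in blast crisis, and it carries the BCR-ABL fusion kinase. Before any drug the line carried ClonTracer tags, heritable DNA barcodes delivered by lentivirus, as 1 polyclonal pool. Clones 1, 2 and 4 were sorted as single cells out of GNF-2-resistant cells (2.5 µM) and expanded, and they had never met a catalytic inhibitor. Clones 1 and 2 grow in 2.5 µM GNF-2, and Clone 4 is resistant to 2.5 µM GNF-2, 2.5 µM imatinib and 0.3 µM nilotinib. Clone 3 came from imatinib-resistant cells (2.5 µM), is resistant to 2.5 µM imatinib and 0.3 µM nilotinib, and had never met an allosteric inhibitor. The resistant populations were bulk cultures held in 2.5 µM imatinib (27 days), 0.3 µM nilotinib (27 days) or 2.5 µM GNF-2 (21 days), and each gave 1 library. The catalytic inhibitors imatinib and nilotinib occupy the ATP site of ABL, while GNF-2 is allosteric and binds its myristate pocket. All 11831 genes with a mean of at least 1 FPKM over the 7 libraries were compared, of 31402 entries in the table.

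A single-cell clone descends from 1 founder, so its cells share the genome and, in part, the heritable chromatin state of that founder. A population grown out under a drug is a mixture of many barcoded lineages, and its RNA is an average over them. In a bulk library, fewer cells that express a gene and less RNA of it per cell cannot be told apart. The sort, the expansion after it and the time in culture went with clone status in this design, so their parts cannot be told apart. The labels do not say whether compound was present at harvest, nor whether a clone was taken from the very population culture that was sequenced.

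Values are FPKM, fragments scaled to transcript length and to the mapped total of the library. Depth, estimated from the smallest step of the values, was roughly 1.84e+07 fragments in the GNF-2 population to 3.94e+07 in Clone 1, and the FPKM sums were 497775 to 583520. Of the 11831 genes, 377 were listed at 0 in at least 1 library, including genes with high values elsewhere. Of 9 markers used for myeloid blast crisis, 3 were under 1 FPKM in all 7 libraries, KIT, CSF2RA and MPO. The summed FPKM of the 9 was 51.5 to 88.7 in clones and 71.4 to 92.7 in populations. The transcription factor gene SPI1 was listed at 0 in Clones 3 and 4. Erythroid markers HBB and HBG1 were at 0, and the stromal markers summed to at most 5.55 (Clone 2, mostly COL1A2). Lymphoid markers summed to 50.2 to 148 in clones and 49.9 to 131 in populations, and megakaryocyte markers to 21.8 to 216 and 35.2 to 64.3. Mast cell and basophil markers summed to 137 to 315 in clones and 440 to 521 in populations, and monocyte markers to 3.64 to 63 and 36.5 to 44.6. The mast cell and basophil sum was mostly HDC, at 136 to 314 FPKM in clones and 435 to 519 in populations. TPSAB1 had 5.36, 0.841, 1.04 and 48.1 FPKM in Clones 1 to 4, against 2.11 to 4.83 in populations. MS4A2 was at 0 and CPA3 at most 0.412 FPKM in the 7 libraries. Clone 2 was in both pairs of clones that lay furthest apart, so the main count is also given without it. Among genes with the lowest GC content every clone lay below every population in median log2 deviation. The values were -0.09, 0.01, -0.07 and -0.10 in Clones 1 to 4, against 0.11, 0.06 and 0.08 in the imatinib, nilotinib and GNF-2 populations. At the highest GC content the groups overlapped. The mean deviation of all genes also separated the groups, at -0.10 to -0.01 in clones and 0.02 to 0.12 in populations. In Clone 4 the median deviation was -0.10 for the tenth of genes with the lowest GC content and 0.13 for the tenth with the highest, and in the imatinib population it was 0.11 and -0.14.

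The first question was which genes differed between clones and resistant populations. The drugs were not balanced, since 3 of 4 clones came from GNF-2-resistant cells and 2 of 3 populations were held in catalytic inhibitors. Clones had more RNA of the transferrin receptor TFRC, the folate carrier SLC19A1 and the chaperone HSPA8. They had less of the metallothioneins MT1X and MT2A, the membrane receptor PAQR6, the speckle protein gene PNISR and the mitochondrial iron importer SLC25A37. With resistance class as a covariate HSPA8, PAQR6 and PNISR stayed called, and TFRC, SLC19A1, MT1X, MT2A and SLC25A37 did not. Differences are of log2(FPKM + 1), clones minus populations, which understates the change of genes with low values. With limma, 856 genes passed a Benjamini-Hochberg adjusted p of 0.05, 7.24% of those tested. Of these, 194 rose (1.64%) and 662 fell (5.6%), and 3185 genes (26.9%) had an unadjusted p below 0.05. The median over all genes was -0.08, with 42.5% of genes higher in clones. Called genes that rose had a median of 0.80, and 51 of them were at least 2-fold up on this scale. Those that fell had a median of -1.04, with 361 at least 2-fold down. Protein-coding genes made up 95.4% of the genes that rose and 86.1% of those that fell, against 92.3% of those tested. No source says that libraries came from separate cultures, so p-values measure only the spread between these libraries.

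The split between directions depended on scaling: 22.7% of called genes were higher as deposited, 40.2% after scaling by median ratios (338 higher, 502 lower) and 47.2% after quantile normalization (439 higher, 491 lower). Quantile normalization moved the median of all genes to 0.03. Leaving out 1 library at a time gave 264 calls without Clone 1, 1063 without Clone 2, 692 without Clone 3 and 546 without Clone 4. Dropping the imatinib, the nilotinib or the GNF-2 population in turn left 191, 116 or 268 calls in that order. With resistance class as a covariate, under which Clone 4 no longer contributes, 221 genes were called (26 higher, 195 lower). With population of origin as a covariate, under which the nilotinib population no longer contributes, 11 were called (3 higher, 8 lower). Above 0 in all 7 libraries were 186 of the genes that rose (1.57% of those tested) and 625 of those that fell (5.28%). All clones lay above all populations for 8.21% of genes and below them for 18%, 26.2% in all. Among 280 genes examined by name, 96 were called, and 24 of these stayed called in all 7 fits that left out a library. All 856 genes kept their direction under every scaling, covariate and left-out library named here.

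**Figure D1:**
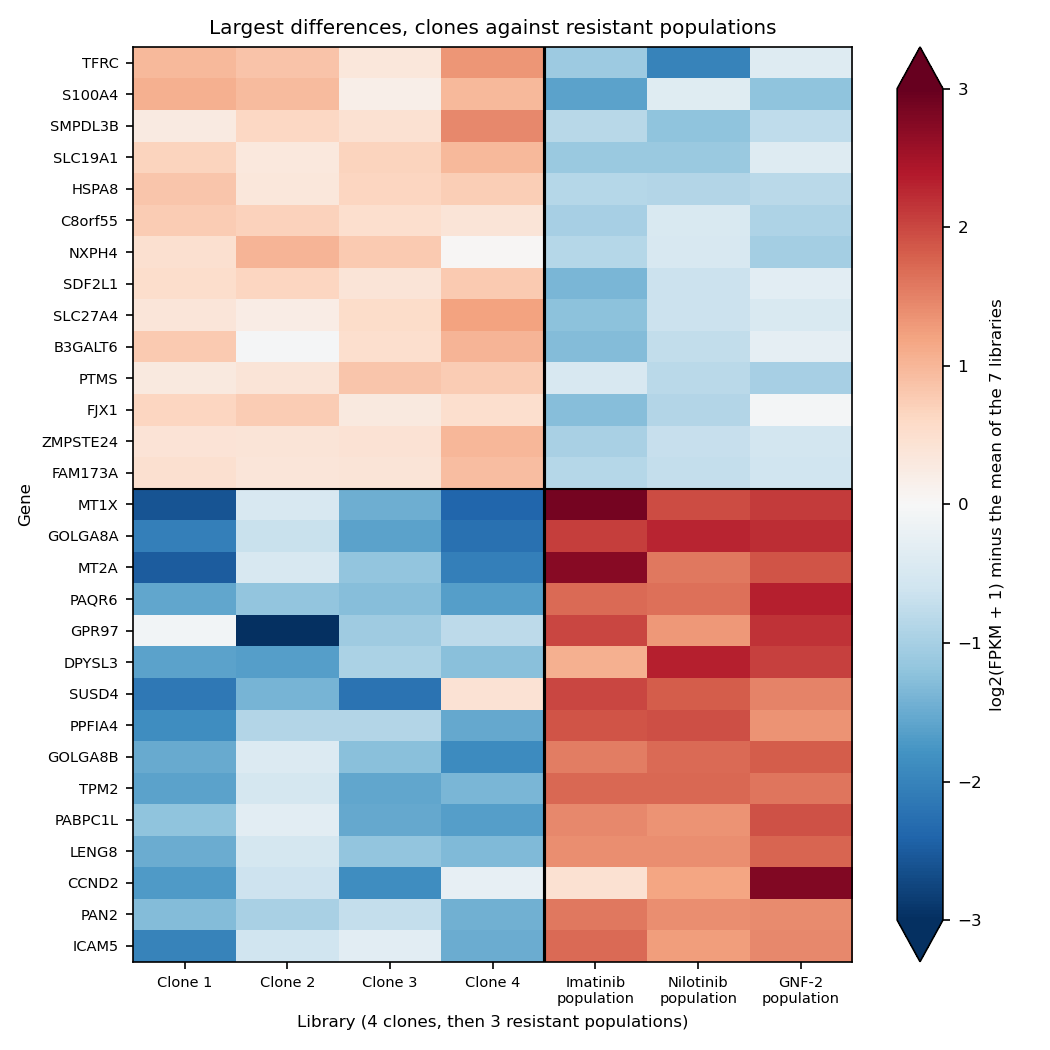
Deviation of log2(FPKM + 1) from the mean of the 7 libraries for 14 of the 15 largest increases (upper block) and the 15 largest decreases (lower block) among called protein-coding genes; columns are the 4 clones, then the 3 resistant populations. Only genes with all 4 clones on the same side of all 3 populations were eligible. Colors end at 3, and GPR97 in Clone 2 and CCND2 in the GNF-2 population show single libraries that stand apart.

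The largest increase was in TFRC, the transferrin receptor that brings iron into cells (chromosome 3, 195776154 to 195809032, GRCh37). TFRC had 107, 98.1, 68.2 and 137 FPKM in Clones 1 to 4, against 24.9, 12.7 and 40.7 FPKM in the imatinib, nilotinib and GNF-2 populations. Every clone was above every population, and the log2 difference was 2.03 (SE 0.38, limma adjusted p = 0.026). That call was lost without Clone 1, Clone 4, the imatinib population or the nilotinib population. In the opposite direction went SLC25A37, mitoferrin 1, which carries iron into mitochondria. It fell to 34.7, 19.3, 54.7 and 46.9 FPKM in Clones 1 to 4, against 182, 159 and 218 in the populations (-2.32, SE 0.33, limma adjusted p = 0.0112). Every clone was below every population, but the call was lost without any 1 of the 3 populations (highest adjusted p 0.11 over all limma settings). Its relative SLC25A28, mitoferrin 2, fell too, at 16.7 ± 2.78 FPKM in clones and 38.9 ± 5.99 in populations (SD, n = 4 and 3, limma adjusted p = 0.0113). Of the 13 iron handling genes tested, 9 were higher and 4 lower. On this list only TFRC and SLC25A37 passed, where 1.64% of all genes were called higher and 5.6% lower. SLC25A28 and the heme genes that follow were not on that list and were chosen after their values were seen. UROS, an enzyme of heme synthesis, rose to 44.4 ± 6.47 FPKM in clones against 24.1 ± 6.62 in populations (limma adjusted p = 0.0423), a call kept in 2 of 7 fits that left out a library. PPOX, a later enzyme of the pathway, fell to between 6.68 and 9.11 FPKM in clones, against 13.5 to 17.4 in populations (limma adjusted p = 0.0209), a call lost without any 1 of the 3 populations. ALAS1 and FECH did not pass (limma adjusted p = 0.154 and 0.696).

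S100A4, a calcium-binding protein linked to cell motility, was the most abundant of the genes with large increases. It had 1392, 1294, 754 and 1304 FPKM in Clones 1 to 4, against 219.8, 520.2 and 286 FPKM in the imatinib, nilotinib and GNF-2 populations (1.85, SE 0.33, limma adjusted p = 0.0229). Clone 3 was the lowest clone and still above the highest population. SLC19A1, the reduced folate carrier, had 44.8, 35, 44.9 and 55.8 FPKM in the clones and 12.3, 12.3 and 21 FPKM in the populations (1.54, SE 0.23, limma adjusted p = 0.0122). SMPDL3B, a membrane lipase of sphingolipid metabolism, rose too and was highest in Clone 4, at 10.9 FPKM against at most 1.58 in any population. The fatty acid transporter SLC27A4 was also highest in Clone 4, at 15.6 FPKM. Others among the 15 were the prelamin protease ZMPSTE24, the glycosyltransferase B3GALT6, the chromatin-associated acidic protein PTMS, FJX1, NXPH4, FAM173A and C8orf55, with differences of 1.27 (FAM173A) to 1.39 (C8orf55). Of these 15 calls, 12 were lost without the nilotinib population, 9 without the imatinib population and 7 without Clone 1. HSPA8 and C8orf55 were the 2 that stayed called whichever library was left out.

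Metallothioneins, small cysteine-rich proteins that bind zinc and copper and are switched on by metal through the factor MTF1, gave the largest decrease. MT1X had 21.5, 95.9, 47.9 and 24.8 FPKM in Clones 1 to 4, against 996, 522 and 576 FPKM in the imatinib, nilotinib and GNF-2 populations. MT2A had 43.1, 179, 108 and 59.7 FPKM in the clones, against 1657, 748 and 917 FPKM in the populations. Clone 2 was the highest clone for both genes and the imatinib population the highest population, and the groups did not come near each other. The log2 difference was -4.04 for MT1X (SE 0.51, limma adjusted p = 0.00733) and -3.62 for MT2A (SE 0.50, limma adjusted p = 0.0103), and both were called whichever library was left out. Both calls were lost with resistance class or population of origin as a covariate (limma adjusted p of up to 0.0851 for MT1X and 0.091 for MT2A). Metallothionein genes are near-identical, so reads may be split between copies and the value of each copy is uncertain. The zinc exporter SLC30A1, another gene that MTF1 controls, had 14.9 ± 5.31 FPKM in clones and 38.1 ± 25.7 in populations and did not pass (limma adjusted p = 0.157). MTF1 itself differed by -0.14 (limma adjusted p = 0.647). The promoters of both metallothioneins are shown because the genes moved together; each is the 250 bases upstream of the transcription start from RefSeq (GRCh38.p14, plus strand), for MT1X chr16:56682220-56682469 and for MT2A chr16:56608334-56608583. Capitals mark matches to the core of the metal response element, TGCACNC or TGCGCNC on either strand.
MT1X: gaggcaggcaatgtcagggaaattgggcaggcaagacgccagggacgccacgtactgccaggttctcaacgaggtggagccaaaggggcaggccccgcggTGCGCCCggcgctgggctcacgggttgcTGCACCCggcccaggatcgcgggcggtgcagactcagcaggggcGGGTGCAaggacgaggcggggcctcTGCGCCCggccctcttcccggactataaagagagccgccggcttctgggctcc
MT2A: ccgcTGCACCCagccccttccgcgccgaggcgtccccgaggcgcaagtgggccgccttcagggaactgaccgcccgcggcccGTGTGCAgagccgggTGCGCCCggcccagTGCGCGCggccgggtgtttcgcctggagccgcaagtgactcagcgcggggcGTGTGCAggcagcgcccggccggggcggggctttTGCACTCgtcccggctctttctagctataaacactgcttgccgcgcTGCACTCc
There were 4 matches in MT1X and 7 in MT2A. Of 9257 promoters of tested genes, 33.6% held at least 1 match and 9.81% held 2 or more. SLC30A1 had 1 match and MTF1 had 0. A match is a run of letters and was not tested as a site.

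PAQR6, a membrane progestin receptor gene (chromosome 1, 156213206 to 156217843, GRCh37), had the smallest p of the 15 largest decreases. It had 0.808, 1.33, 1.17 and 0.674 FPKM in Clones 1 to 4, against 16.1, 15.7 and 25.4 FPKM in the populations (-3.31, SE 0.22, limma adjusted p = 0.000839). PAQR6 was called under all 16 alternatives tried for single genes. PAN2, the catalytic subunit of a deadenylase that shortens poly(A) tails, had 1.69, 2.38, 3.00 and 1.44 FPKM in the clones and 18.7, 16.5 and 16.7 FPKM in the populations (-2.57, SE 0.20, limma adjusted p = 0.00196). PABPC1L, a poly(A)-binding protein, fell as well (-2.74, limma adjusted p = 0.00681). Both genes were under 4 FPKM in every clone and above 14 in every population. TPM2, a tropomyosin, had 2.05 ± 1.21 FPKM in clones and 21.3 ± 1.13 in populations (SD, n = 4 and 3, limma adjusted p = 0.00321). DPYSL3, a regulator of the neuronal and tumor cell cytoskeleton, had 0.136, 0.0968, 0.790 and 0.453 FPKM in the clones and 6.24, 16.2 and 13.3 FPKM in the populations (-3.18, limma adjusted p = 0.00448). PPFIA4, a liprin, and ICAM5, an adhesion molecule best known from neurons, fell by 3.02 and 2.57 on the log2 scale (limma adjusted p = 0.00374 and 0.0151). GOLGA8A and GOLGA8B fell by 3.83 and 2.95 (limma adjusted p = 0.00321 and 0.00477), but these copies on chromosome 15 are near-identical and the split of reads between them is uncertain.

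Of the 15 decreases, 11 stayed called whichever library was left out, and ICAM5, GPR97, SUSD4 and CCND2 did not. GPR97, an adhesion receptor of granulocytes, had 11.7, 0.177, 5.44 and 6.74 FPKM in Clones 1 to 4, against 52.9, 31.9 and 58.9 FPKM in the populations, and kept its call in 1 of 7 fits that left out a library, the fit without Clone 2. SUSD4, a complement regulator, was at 6.35 FPKM in Clone 4 and at most 1.07 in the other clones, against 14.2 to 20.8 in the populations; its call was lost without Clone 1 or any population. CCND2, a G1 cyclin, had 0.238, 1.64, 0.107 and 2.40 FPKM in the clones, against 4.58, 8.24 and 26.7 FPKM in the imatinib, nilotinib and GNF-2 populations (-2.59, SE 0.61, limma adjusted p = 0.0465). The CCND2 call was lost whichever library was left out.

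Genes of RNA processing fell and rose in different sets, as the heat map of these genes shows. The genes in this paragraph were chosen after their values were seen, apart from the whole SRSF and HNRNP families. Lower in clones were genes of nuclear speckles, the storage sites of splicing factors, and genes whose transcripts are known to keep introns. LENG8 had 18.7, 37.4, 23.6 and 21.2 FPKM in Clones 1 to 4, against 144, 145 and 187 FPKM in the populations (-2.65, SE 0.23, limma adjusted p = 0.00291). PNISR, a serine- and arginine-rich speckle protein, had 18.6, 22.6, 14.8 and 17.2 FPKM in the clones and 70.8, 63.8 and 75.6 FPKM in the populations (-1.89, SE 0.15, limma adjusted p = 0.00239). ARGLU1, a splicing modulator, had 40.7 ± 6.70 FPKM in clones and 139 ± 16.6 in populations (SD, n = 4 and 3, limma adjusted p = 0.00291). OGT, which attaches GlcNAc sugars to nuclear proteins and whose transcript keeps an intron, had 64.2 ± 8.67 FPKM in clones and 218 ± 49.2 in populations (limma adjusted p = 0.0039). NEAT1, the long noncoding RNA that builds paraspeckles, fell to 5.71 ± 1.58 FPKM in clones against 26.5 ± 3.60 (limma adjusted p = 0.00409). MALAT1, the neighboring speckle RNA, did not pass, at 16.9 to 25.1 FPKM in clones and 28.8 to 43.9 in populations (limma adjusted p = 0.063). The cyclins L that bind the splicing kinases fell as well (CCNL1 -1.02 and CCNL2 -1.72, limma adjusted p = 0.00681 and 0.0135). Of the CLK kinases 0 of 4 passed, with CLK1 at -1.05 (limma adjusted p = 0.154). Also called lower were LUC7L, LUC7L3, SRRM1, SRRM2, NKTR, DDX39B, RBM5, RBM25 and RBM39.

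In whole families the picture was mixed. Of 11 SRSF splicing factors tested, 7 were higher and 4 lower. The 2 called, SRSF5 and SRSF11, both fell (limma adjusted p = 0.0193 and 0.0181), where 5.6% of all genes were called lower. Of 18 HNRNP genes, which package nascent RNA, 11 were higher, and HNRNPM, HNRNPAB and HNRNPU were called, where 42.5% of all genes were higher and 1.64% called higher. HNRNPM had 135, 141, 138 and 128 FPKM in the clones and 50.6, 54.6 and 78.3 FPKM in the populations (1.16, SE 0.16, limma adjusted p = 0.0103). HNRNPAB kept its call in 3 of 7 fits that left out a library. HNRNPU kept its call in 1 of 7 and lost it after quantile normalization, and it shares its locus with an antisense gene while strand use is not given, so its value is uncertain. Outside the family the RNA helicase DHX9 rose the most, to 86.5, 83.6, 68.4 and 78.2 FPKM in Clones 1 to 4 against 31.1, 30.4 and 37.9 FPKM in the populations (1.23, SE 0.13, limma adjusted p = 0.00463). The splicing factor SFPQ and the export adaptor ALYREF rose by 0.96 and 0.66. Of the 18 genes listed as lower, 7 stayed called whichever library was left out, and of the 6 listed as higher 1 did, DHX9. Without the nilotinib population 11 of the 18 and 5 of the 6 calls were lost. TXNIP, a redox and glucose-uptake regulator, and WSB1, a ubiquitin ligase adaptor whose transcript is also alternatively spliced, fell by 2.50 and 2.22 (limma adjusted p = 0.00738 and 0.00574) and stayed called whichever library was left out.

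**Figure D2:**
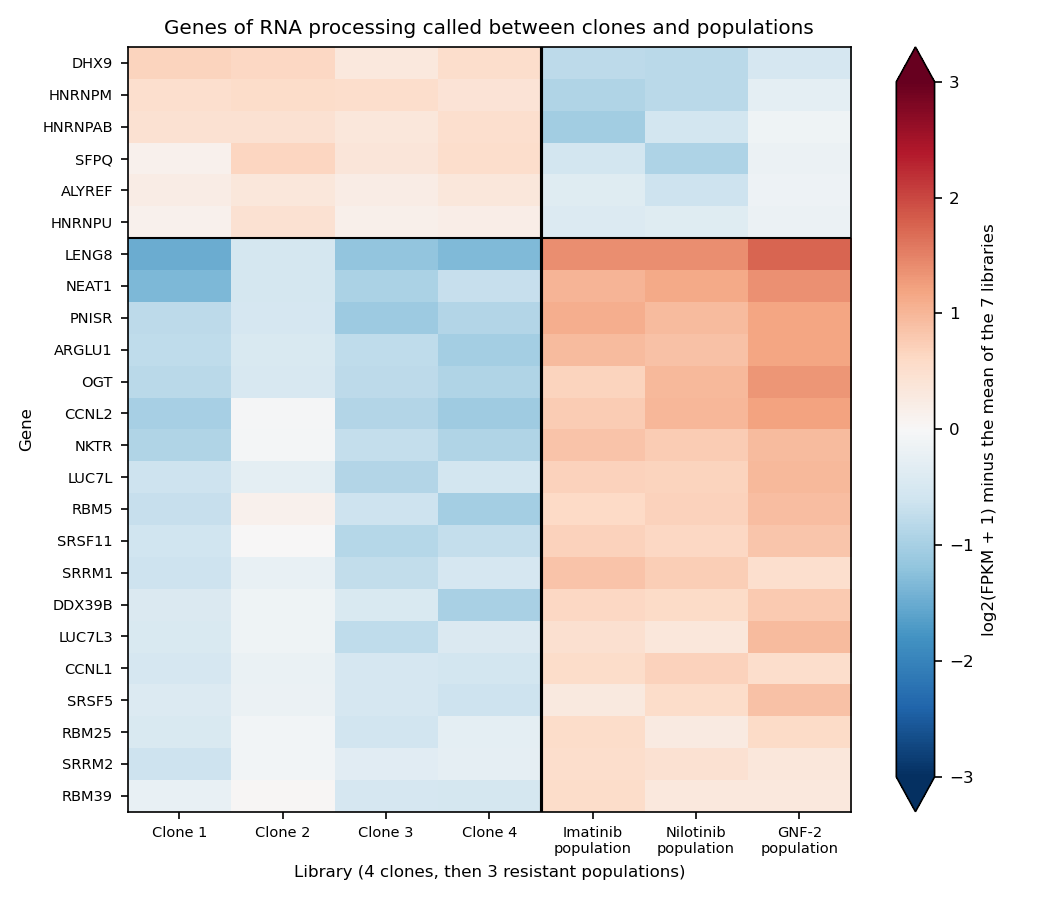
Deviation of log2(FPKM + 1) from the mean of the 7 libraries for 6 called RNA-processing genes that were higher in clones (upper block) and 18 that were lower (lower block), in 4 clones and then 3 resistant populations. Clone 2 is the palest clone for LENG8 (37.4 FPKM), CCNL2 (32 FPKM) and RBM5 (48.8 FPKM), and still lies below every population for these genes.

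Chaperones rose in part. Cytosolic and mitochondrial heat shock proteins fold new and damaged proteins, and many are switched on by HSF1. Of 16 tested, 13 were higher in clones, 5 were called higher and 0 lower, where 1.64% of all genes were called higher. The median of the 16 was 0.39, beside -0.08 over all genes. HSPA8, the constitutive HSP70, had 745, 527, 660.4 and 696 FPKM in Clones 1 to 4, against 233, 227 and 239 FPKM in the populations (1.48, SE 0.14, limma adjusted p = 0.00374). The 3 populations were nearly level and the lowest clone was more than 2 times the highest population. HSP90AA1, the inducible HSP90, had 351 ± 28.5 FPKM in clones and 216 ± 13.7 in populations (SD, n = 4 and 3, limma adjusted p = 0.018). The other 3 were the co-chaperones DNAJA1 and STIP1 and the mitochondrial HSPE1, with differences of 0.67 (STIP1) to 0.82 (HSPE1). The stress-induced HSPA1B did not follow, at 28.8, 59.7, 38.3 and 22.1 FPKM in the clones and 85.5, 78.2 and 17 FPKM in the populations (-0.48, limma adjusted p = 0.641), and it is near-identical to HSPA1A; a second entry of the table under the same symbol did not pass either (limma adjusted p = 0.786). Without the imatinib or the nilotinib population, or with resistance class as a covariate, only the HSPA8 call was kept among these 5. The HSPE1 call was also lost after quantile normalization. The HSPA8 promoter is shown because that gene led the list: 250 bases upstream of the start from RefSeq (GRCh38.p14, minus strand), chr11:123062137-123062386, printed 5′ to 3′ along the gene. Capitals mark inverted repeats of the heat shock element, GAANNTTC or TTCNNGAA, each of which reads the same on both strands.
HSPA8: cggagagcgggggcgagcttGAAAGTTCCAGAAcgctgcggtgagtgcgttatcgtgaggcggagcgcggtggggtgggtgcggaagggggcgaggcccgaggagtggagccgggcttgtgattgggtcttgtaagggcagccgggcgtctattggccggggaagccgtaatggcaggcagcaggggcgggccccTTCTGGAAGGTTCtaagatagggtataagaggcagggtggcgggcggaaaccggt
There were 4 matches, in 2 overlapping pairs. Of 9257 promoters of tested genes, 8.75% held at least 1 match and 0.886% held 2 or more, and 5 of the 16 chaperones held 1 or more.

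Endoplasmic reticulum chaperones were higher for 16 of 18 genes, with a median of 0.25 and 2 called, where 42.5% of all genes were higher and 1.64% called higher. On the list's mean log2 deviation from the mean of the 7 libraries the groups overlapped, with Clone 1 (-0.15) below the GNF-2 population (0.06). SDF2L1 had 57.6 ± 7.01 FPKM in clones and 22.7 ± 8.04 in populations (SD, n = 4 and 3, limma adjusted p = 0.0212). CRELD2 had 17.7 to 19.7 FPKM in clones and 7.16 to 12.6 in populations (limma adjusted p = 0.0411), a call lost whichever library was left out. SYVN1, listed at 0 in Clone 1, did not pass. Ribosome biogenesis genes and other MYC targets lay higher in 20 of 22 cases (median 0.40), but 1 passed, BOP1, a factor for the large ribosomal subunit (0.88, limma adjusted p = 0.0282). On this list's mean deviation the groups overlapped, with Clone 2 (0.06) below the GNF-2 population (0.11). NRF2 antioxidant genes were higher for 15 of 17 with 1 call, TALDO1 of the pentose phosphate pathway (0.94, limma adjusted p = 0.0117). The groups overlapped on the mean deviation of this list too. Clone 2 (-0.40) lay below the nilotinib (-0.14) and GNF-2 (-0.08) populations, and Clone 4 (0.96) was the highest library. In Clone 4 the NRF2 targets NQO1 and PRDX1 stood at 54.9 and 1463 FPKM, against at most 12.8 and 449 in the other clones. ATF4 and amino acid response genes were higher for 17 of 21 with 0 called, and the groups overlapped on the same mean deviation. Clone 2 (-0.69) lay beside the imatinib population (-0.70), and the GNF-2 population (0.28) lay above Clone 4 (0.11). In this list Clone 2 was the lowest clone for PSAT1 (67.7 FPKM) and PHGDH (58.3 FPKM).

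Glycolysis and hypoxia genes were lower in clones for 22 of 25, with a median of -0.50. The neuronal enolase ENO2 had 23.8, 80.3, 96.8 and 43.4 FPKM in Clones 1 to 4, against 329, 325 and 149 FPKM in the populations (-2.22, SE 0.50, limma adjusted p = 0.0423). GPI, a glycolytic isomerase, had 261 ± 31.7 FPKM in clones and 431 ± 64.1 in populations (SD, n = 4 and 3, limma adjusted p = 0.0375). These were the 2 called lower, 8% of the list, where 5.6% of all genes were called lower and 42.5% were higher. Each kept its call in 2 of 7 fits that left out a library, those without Clone 2 or Clone 3. Both calls were lost with resistance class as a covariate, and the GPI call also after median ratio scaling. The list's mean level was lowest in Clones 1 and 4 (-0.67 and -0.48 from the mean of the 7 libraries) and highest in the imatinib population (0.70). Clone 3 (0.11) lay above the GNF-2 population (0.07), so the groups overlapped on this mean.

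Mitosis genes were lower in clones for 19 of 19, with a median of -0.77. Called among them were CENPE, a kinetochore motor, TTK, the spindle checkpoint kinase, TOP2A, which untangles chromosomes, and NUF2, a kinetochore subunit. They made up 21.1% of the list, where 5.6% of all genes were called lower. CENPE had 3.94, 7.39, 6.03 and 3.93 FPKM in Clones 1 to 4, against 15.4, 12.7 and 15.2 FPKM in the populations (-1.32, SE 0.22, limma adjusted p = 0.018). TTK had 16.4 ± 5.10 FPKM in clones and 38.8 ± 7.69 in populations (SD, n = 4 and 3, limma adjusted p = 0.0368). MKI67 was at 5.72, 19.6, 12.5 and 10.4 FPKM in the clones and 25.4, 26 and 24.3 FPKM in the populations and did not pass (limma adjusted p = 0.0841). For 16 of the 19 genes all clones lay below all populations, where 18% of all genes did. All 4 calls were lost without Clone 1, without any 1 of the 3 populations, and with resistance class as a covariate. The TOP2A and NUF2 calls were also lost after median ratio scaling, and NUF2 after quantile normalization. DNA replication genes did not share the direction, with 10 of 20 higher and 2 called higher. Over all genes 42.5% were higher and 1.64% called higher. POLA1, the catalytic subunit of DNA polymerase alpha, rose to 7.43 ± 1.28 FPKM in clones against 3.48 ± 0.867 in populations (limma adjusted p = 0.0376), a call kept in 1 of 7 fits that left out a library. UHRF1, which couples replication to DNA methylation, rose to 10.4 ± 1.42 against 5.64 ± 1.54 (limma adjusted p = 0.0462), a call lost whichever library was left out.

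**Figure D3:**
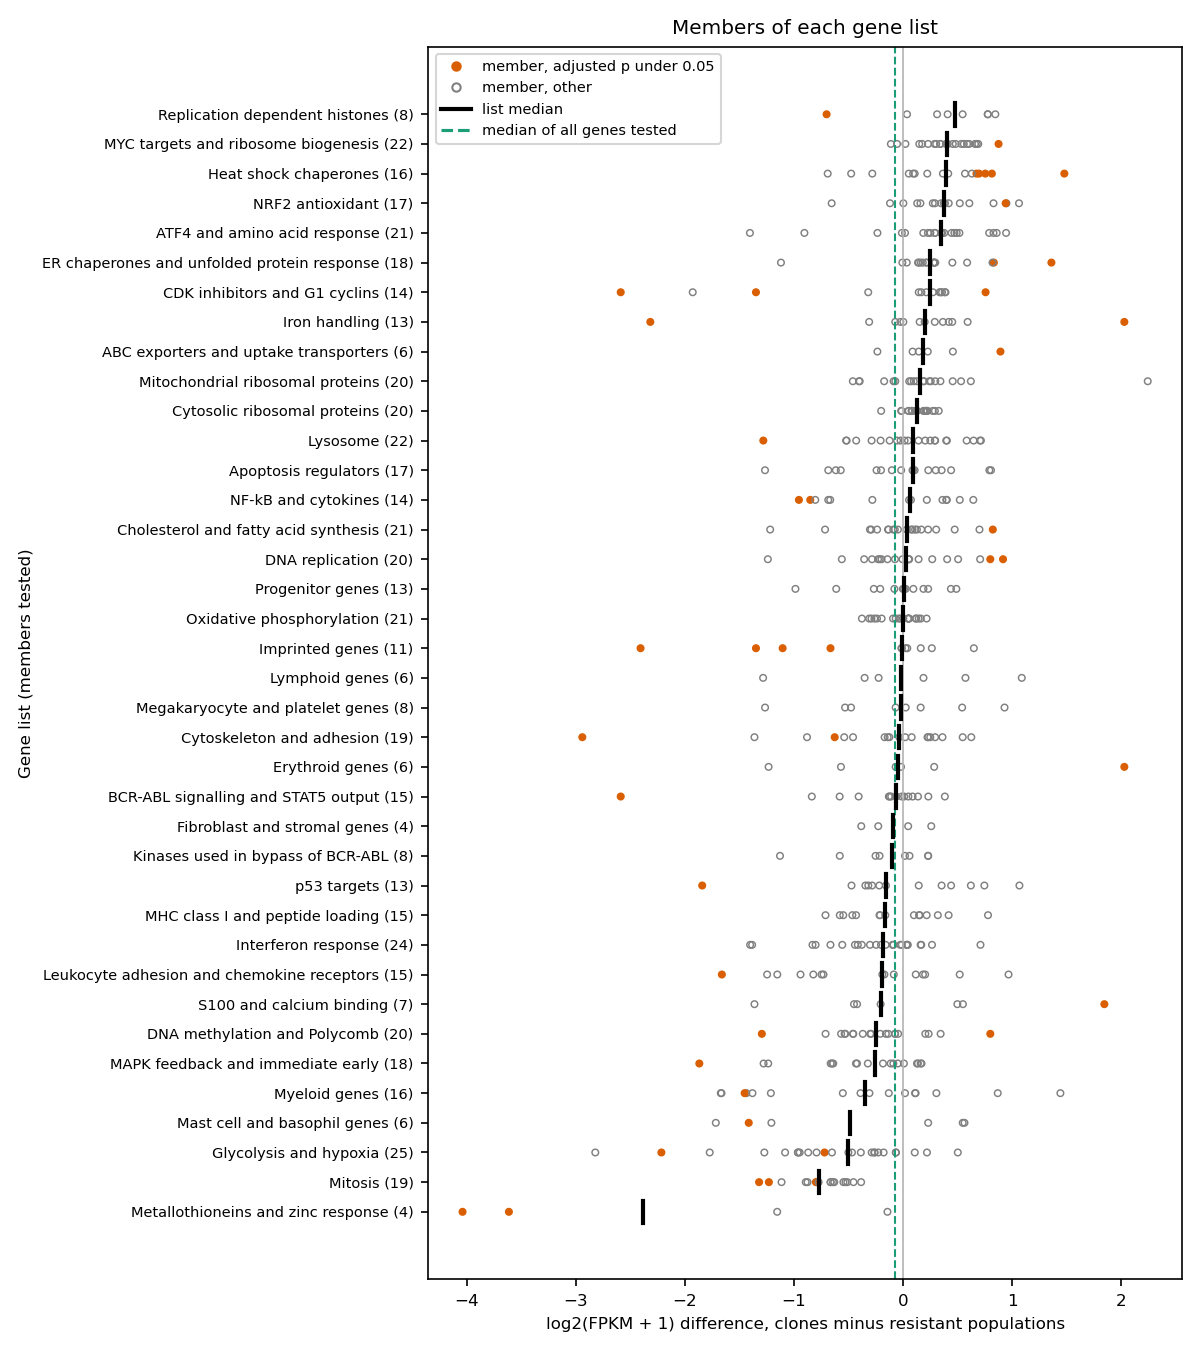
Log2(FPKM + 1) difference, clones minus resistant populations, for each tested member of 38 gene lists with at least 3 tested members (number in brackets); filled points passed the adjusted p of 0.05, black bars are list medians and the dashed line is the median of all genes (-0.08). The list of metallothioneins and zinc response genes (median -2.38) and mitosis genes (-0.77) have the lowest medians, and the called heat shock genes all lie to the right of 0.

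ABL1 and BCR, the partners of the fusion, were well expressed throughout. ABL1 had 74.6 ± 14.9 FPKM in clones and 92.9 ± 15.4 in populations (SD, n = 4 and 3), a difference of -0.32 with a confidence interval of -0.73 to 0.09 (limma adjusted p = 0.295). BCR, at its full-length entry, had 58.8 to 106 FPKM in clones and 85.1 to 102 in populations (-0.29, limma adjusted p = 0.386). In both cases Clone 4 was the highest clone, and the groups overlapped. Of 15 BCR-ABL signalling and STAT5 output genes, CCND2 alone was called, and of 18 MAPK feedback and immediate early genes JUN alone. Both were called lower, at 6.67% and 5.56% of their lists, near the 5.6% of all genes called lower. JUN, an AP-1 subunit, had 0.166, 0.576, 1.51 and 0.199 FPKM in the clones and 4.52, 5.11 and 4.22 FPKM in the populations (-1.87, limma adjusted p = 0.0158). CDK4, the kinase partner of D cyclins, rose to 97.4 ± 18.8 FPKM in clones against 57.0 ± 9.81 (limma adjusted p = 0.0495), but the call was lost in 6 of 7 fits that left out a library, with a pseudocount of 0.1 and after quantile normalization. CDKN1C, a CDK inhibitor from the imprinted region of chromosome 11, fell to 1.73 ± 0.757 against 5.76 ± 0.323 (limma adjusted p = 0.0215). Of 17 apoptosis regulators 0 were called, where 7.24% of all genes were, 1.64% higher and 5.6% lower. Among 6 drug transporters tested, ABCC4, an exporter of cyclic nucleotides, rose to 17.1 ± 1.69 FPKM in clones against 8.79 ± 1.78 in populations (limma adjusted p = 0.0212). ABCB1, the multidrug exporter, was at 1.20, 1.11, 0.359 and 10.4 FPKM in Clones 1 to 4, against 0.826, 1.81 and 0.851 FPKM in the populations, so Clone 4 alone stood out.

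Single members of other lists were called. Of 11 imprinted genes 4 were called lower, namely SGCE, CDKN1C, L3MBTL1 and PLAGL1, where 5.6% of all genes were called lower. SGCE was called in all 7 fits that left out a library, CDKN1C in 3, L3MBTL1 in 2 and PLAGL1 in 1, and PLAGL1 was also lost under both scalings. SGCE, a sarcoglycan, had 0.0145, 0.452, 0.0170 and 0.0541 FPKM in the clones, against 3.01, 8.86 and 4.33 FPKM in the populations (-2.41, SE 0.34, limma adjusted p = 0.0107). Polycomb and DNA methylation genes were lower for 16 of 20, and EZH1, a histone H3 methyltransferase, fell (-1.29, limma adjusted p = 0.0136), while UHRF1, also on this list, rose. Of 16 myeloid genes PRTN3, a granule protease, was called lower, and of 6 mast cell and basophil genes HDC, which makes histamine. These were 6.25% and 16.7% of their lists, where 5.6% of all genes were called lower. HDC had 136, 314, 136 and 162 FPKM in the clones, against 455, 519 and 435 FPKM in the populations (-1.42, limma adjusted p = 0.0342), and the call was kept in 1 of 7 fits that left out a library. DDB2, a DNA damage sensor and p53 target, fell to 6.28 ± 2.14 FPKM in clones against 24.7 ± 6.82 (limma adjusted p = 0.0172), while 0 other p53 targets of 13 passed. NFKB2 and TRAF1 of the NF-kB list fell, as did the integrin ITGAX, the focal adhesion protein ZYX, the lysosomal protease CTSH and the linker histone HIST1H1C. The ZYX call was lost whichever library was left out, TRAF1 kept its call in 1 of 7 such fits, NFKB2, CTSH and HIST1H1C in 3 and ITGAX in 4. FASN, fatty acid synthase, rose to 108 ± 8.17 FPKM in clones against 60.7 ± 8.90 (limma adjusted p = 0.0168). It was the only 1 of 21 lipid synthesis genes called, where 1.64% of all genes were called higher. The oxidative phosphorylation and cytosolic ribosomal protein lists had 0 called, with medians of 0.00 and 0.13.

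The second question was whether clones differed from each other more than populations did. They did: the SD over genes of the log2(FPKM + 1) difference averaged 0.742 over the 6 pairs of clones and 0.493 over the 3 pairs of populations. The difference of 0.250 was the largest of the 35 ways to split the libraries (exact permutation test, two-sided, p = 0.0286, the smallest possible). Pairs of clones ranged from 0.654 (Clones 1 and 3) to 0.848 (Clones 2 and 3), and pairs of populations from 0.465 to 0.540. Clone and population pairs ranged from 0.708 to 0.873. For 69.1% of genes the SD over clones was larger than over populations, with medians of 0.261 and 0.180. Estimated depth overlapped between the groups, at 2.43e+07 to 3.94e+07 fragments in clones and 1.84e+07 to 3.43e+07 in populations.

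**Figure D4:**
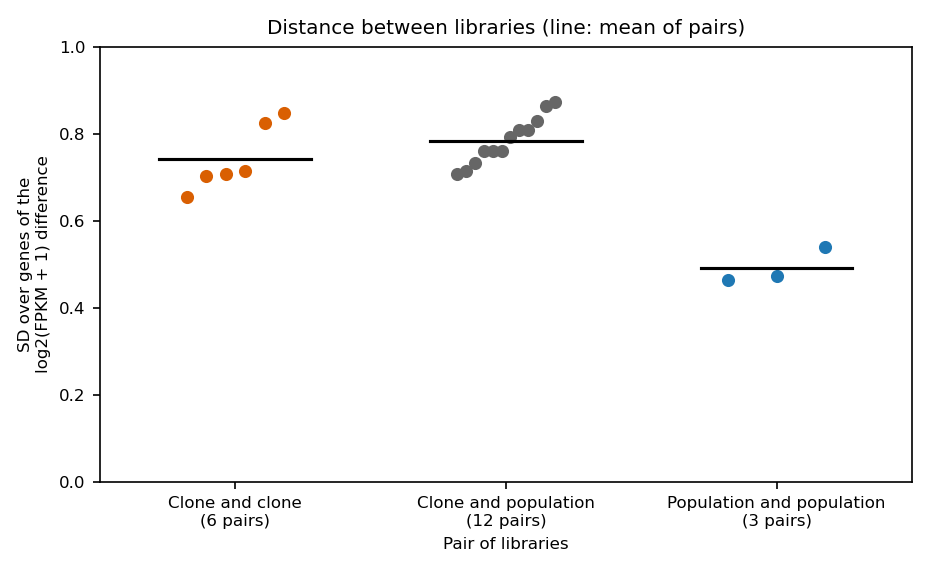
SD over 11831 genes of the log2(FPKM + 1) difference for each pair of libraries, grouped as pairs of clones, clone with population, and pairs of populations; lines are means. All 6 pairs of clones (0.654 to 0.848) lie above all 3 pairs of populations (0.465 to 0.540).

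Against its population of origin each clone, with 1 library and no test, had more genes lower than higher. Genes at least 2-fold apart in FPKM, with 5 FPKM or more in the higher library, were counted. Clone 1 had 225 higher (1.9%) and 932 lower (7.88%) against the GNF-2 population. Clone 2 had 450 higher (3.8%) and 896 lower (7.57%), and Clone 4 had 409 higher (3.46%) and 926 lower (7.83%), against the same population. Clone 3 had 449 higher (3.8%) and 826 lower (6.98%) against the imatinib population. Clones 1, 2 and 4 share 1 reference library, so these counts are not independent.

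Some genes were on in some clones, at 5 FPKM or more, and off in others, under 0.5. There were 359 such genes among the clones (3.03%) and 101 among the populations (0.854%), and 172 of the 359 were listed at 0 in at least 1 library. Of all tested genes, 156 to 190 were listed at 0 in a clone and 98 to 122 in a population, and the part of these zeros in the count was not tested. Without Clone 2 the count among clones was 209. With genes above 0 in all 7 libraries the counts were 187 among clones and 2 among populations. A pair of clones differed in this way at 40 to 101 of those genes and a pair of populations at 0 or 1. For 147 of the 187 genes all 3 populations lay strictly between the lowest and the highest clone. Clone 2 alone held 17 genes on and 9 off, Clone 4 held 9 on and 0 off, Clone 3 held 3 on and 1 off, and Clone 1 held 0 on and 3 off.

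In Clone 2 the largest was PHOSPHO1, a phosphatase of mineralizing cells, with 0.0838, 99.9, 0.0252 and 0.123 FPKM in Clones 1 to 4, against 0.0547, 0.0375 and 0.0327 FPKM in the populations. The chloride transporter CLCN4 was at 39 FPKM in Clone 2 and at most 0.0317 in the other clones, against at most 0.0802 in the populations. Neither gene was thus detectable much above 0 in any population. AXL, a receptor tyrosine kinase, was at 22.2 FPKM in Clone 2 and at most 0.455 in the other clones, and at 3.69, 0.215 and 1.66 in the populations. MED12L, a Mediator subunit, and ANXA3, an annexin of neutrophils, were at 34.6 and 18.2 FPKM in Clone 2 alone among the clones. The erythroid factor GATA1 was at 8.55 FPKM in Clone 2 and at most 0.722 elsewhere in the 7 libraries, while KLF1 and HBB were at 0 there. Off in Clone 2 alone were the Fc receptor FCGR1A (0.349 FPKM, against 27.9 to 30.9 in the populations), the peroxidase LPO, TNFRSF8 and PDE3B. CYP1B1, a steroid and carcinogen hydroxylase, was off there too, with 14.2, 0.0174, 329.6 and 19.9 FPKM in Clones 1 to 4 and 42, 56.8 and 21.9 FPKM in the populations.

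In Clone 3 alone the Wnt agonist RSPO2 was on, with 0.0330, 0.106, 10.7 and 0.0891 FPKM in Clones 1 to 4, against 9.04, 5.18 and 2.16 FPKM in the imatinib, nilotinib and GNF-2 populations. The G protein subunit GNG2 and the protease HTRA3 were on in that clone as well, and at 4.30 to 8.29 and 2.38 to 4.30 FPKM in the populations. In Clone 4 alone the lipid flippase ATP9A was on, with 19.5 FPKM against 4.55 to 8.87 in the populations. The adhesion protein CDH2, the GTPase RHOJ, the transcription factor TFEC and TCEAL3 were on in Clone 4 alone among the clones. They stood at 8.92 (TFEC) to 10.6 (CDH2) FPKM. CDH2 was at 10.3, 1.59 and 0.736 FPKM in the imatinib, nilotinib and GNF-2 populations. TCEAL3 was at 5.27 to 7.68 and TFEC at 3.72 to 5.03 FPKM in the populations. RHOJ was under 0.5 FPKM in both catalytic-inhibitor populations. In Clone 1 alone WBP5 was off, with 0.331, 20.6, 18.1 and 18.2 FPKM in Clones 1 to 4, against 6.42, 15.1 and 10.9 FPKM in the populations. MBNL2, an RNA-binding splicing regulator, and IFI44L were off in Clone 1 too.

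**Figure D5:**
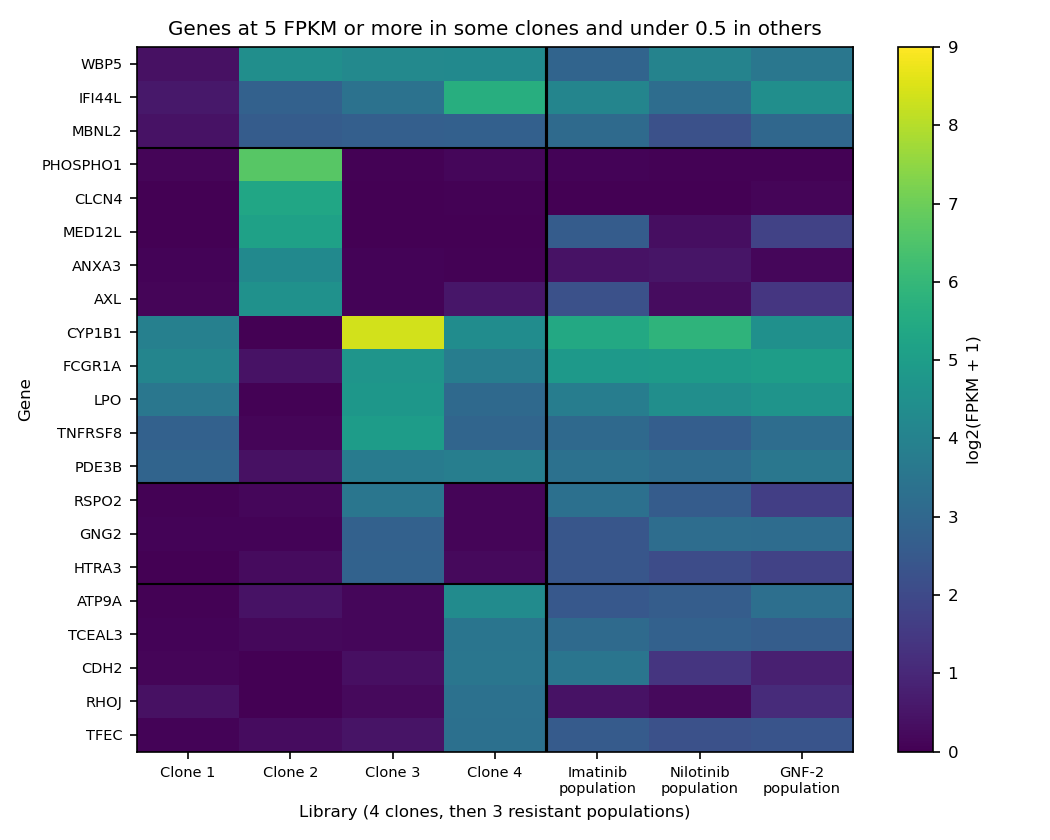
Level, as log2(FPKM + 1), of 21 genes on in some clones and off in others, in 4 clones and then 3 resistant populations; lines divide genes by the clone that stands alone, Clone 1 at the top to Clone 4 at the bottom. PHOSPHO1 is near 0 in all libraries but Clone 2 (99.9 FPKM), while RSPO2 and TCEAL3 are at intermediate levels in the populations.

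Genes of the largest spread over clones, in log2(FPKM + 1) and above 0 in all libraries, were led by IFI27, an interferon-induced mitochondrial protein. It had 2.22, 197, 18 and 1957 FPKM in Clones 1 to 4, against 366, 12.6 and 113 FPKM in the populations. Of 24 interferon response genes 0 were called between the groups, where 7.24% of all genes were called. Their mean level, relative to the mean of the 7 libraries, ran from -1.73 in Clone 1 to 1.43 in Clone 4. The populations lay between -0.35 and 0.47. OAS2, which senses double-stranded RNA, was at 4.72, 23.7, 40.2 and 171 FPKM in Clones 1 to 4 and 46.9, 26.8 and 74.6 FPKM in the populations. Next came VGLL3, a cofactor of TEAD factors, with 5.86, 0.984, 322 and 146 FPKM in the clones, against 78.5, 61.2 and 37.8 FPKM in the populations. FCER1G, the shared Fc receptor gamma chain, was at 323 FPKM in Clone 2 and 0.554 in Clone 3. SERPING1, the C1 inhibitor of complement, was at 36.3 and 30.1 FPKM in Clones 2 and 4, at most 0.0559 in the other clones and at most 0.605 in any population. SIGLEC12 was highest in Clone 4 (510.2 FPKM), PCOLCE in Clone 2 (381 FPKM) and the joining chain IGJ in Clone 1 (187 FPKM). The stromal, erythroid and megakaryocyte marker sums were highest in Clone 2, at 5.55, 8.57 and 216 FPKM. The erythroid sum was nearly all GATA1 (8.55 FPKM), and the next highest megakaryocyte sum was 66.9 FPKM, in Clone 1. The megakaryocyte sum of Clone 2 was mostly GP9 (119 FPKM) and ITGB3 (90.1 FPKM). VWF was also highest in Clone 2 (1.72 FPKM), but PF4 was at 0 there. ITGA2B was lower in Clone 2 (5.05 FPKM) than in Clone 1 (7.97 FPKM). The part of these markers in the differences between clones was not tested.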

How the data were processed

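RNA of KCL-22 cells was sequenced by the submitters, and the deposited values are FPKM made with TopHat 1.3 and Cufflinks 1.3 on GRCh37, per the submitters' processing notes. Read counts, duplicates and strand settings are not given in the sources used here. FPKM scales with each library's total, so a few abundant genes can shift all others, and an exact 0 may be a failed estimate. Of 31402 table entries, 66 lacked a value in at least 1 library and were left out, and 19 mitochondrial entries were 0 throughout. No column was left unmapped.

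From these values log2(FPKM + 1) was computed for 11831 genes with a mean of at least 1 FPKM over 7 libraries. limma 3.58.1 in R 4.3.3 (lmFit, eBayes with a mean-variance trend, 5 residual degrees of freedom) compared 4 clones with 3 populations, two-sided, with Benjamini-Hochberg adjustment over all genes. The script was tested on simulated data. The spread was compared by an exact permutation over 35 splits. List counts and single libraries were given without a test. Figures and tables used Python 3.11.15, numpy 2.4.6, pandas 2.3.3 and matplotlib 3.10.9.

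The genes and 40 lists were chosen with earlier results of these data known. Genes named were the 15 largest increases and decreases among called, non-overlapping, protein-coding genes above 0 in all 7 libraries, list members that passed and then the largest others, ABL1 and BCR, up to 5 genes on or off in each clone alone, and the 10 with the largest spread over clones. For the last 2 kinds the text names genes above 0 in all 7 libraries, a restriction made after the values were seen. Promoters are from RefSeq on GRCh38.p14, and other positions are those of the deposited table on GRCh37. Depth was estimated from 502 intronless genes and is rough. Some genes that these rules name are not reported here.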

Additional observations from a re-analysis of the deposited data

Results flagged for a closer look

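For 197 named genes and list means, the gap between the highest or lowest clone and its nearest neighbor was divided by the range of the 4 clones, and the 24 given here exceeded Dixon's critical value for 4 samples. Chance alone marks about 1 group in 20, and many of these genes were chosen because 1 clone stood apart. Clone 2 was the distant clone for MED12L (0.996), CLCN4 (0.995), ANXA3 (0.986), PHOSPHO1 (0.98), AXL (0.9), SGCE (0.893), WSB1 (0.891, at 52.9 FPKM) and CCNL1 (0.845, at 24.1 FPKM). Clone 3 was the distant clone for GNG2 (0.978), RSPO2 (0.972), HTRA3 (0.915) and S100A4 (0.881, at 754 FPKM). Clone 4 was the distant clone for TCEAL3 (0.97), ZMPSTE24 (0.908, at 38.9 FPKM), ATP9A (0.905), CDH2 (0.903), RHOJ (0.883), TFEC (0.871), the cytidine triphosphate synthase CTPS (0.844) and PRTN3 (0.836), and for the mean level of mast cell and basophil genes (0.833). Clone 1 was the distant clone for WBP5 (0.955) and MBNL2 (0.947), and for the mean level of apoptosis regulators (0.855). SGCE, WSB1, CCNL1, S100A4, ZMPSTE24, PRTN3 and CTPS were also called between clones and populations. The groups did not overlap for any called gene, so in each of these the distant clone lay on its own group's side.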

How the results depend on the processing

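The 856 calls (194 higher, 662 lower in clones) moved most with the libraries and covariates used. Leaving out 1 library gave 116 to 1063 calls, with 16 to 226 higher and 100 to 837 lower. Resistance class as a covariate gave 221 (26 higher, 195 lower), population of origin 11 (3 higher, 8 lower), an adjusted p of 0.01 gave 116 (16 higher, 100 lower), and counting the vehicle library (0.1% DMSO, 7 days) among the populations 1828 (570 higher, 1258 lower). Median ratio scaling gave 338 higher and quantile normalization 439 higher; the cause of these shifts was not tested. Pseudocounts, filters, variance settings and removal of a length and GC trend, the last chosen after seeing the data, kept each count within 1.5 times. No call changed direction where it was tested. Of 96 called named genes, PAQR6, TXNIP and PNISR were called in every setting and 24 in all 7 fits without a library. The excess spread of clones had the same exact p under 8 other settings. Without 1 library it was 0.20 to 0.303, with an exact p of 0.1 (without a clone) or 0.0667 (without a population), each the smallest possible. The on and off count among clones, 359, was 190 with on at 10 FPKM, 187 for genes above 0 in all 7 libraries, and 209 to 300 without 1 clone. These on and off settings were chosen after seeing the data. Clones 1, 2 and 4 share the GNF-2 population as origin and no clone came from the nilotinib population, so no paired analysis was made. Population of origin, which ties each clone to a population, was fitted as the covariate given above. Depth is known only roughly, so no counting interval is given.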

Other observations

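Some gene families, chosen by symbol after their values were seen, were mostly lower in clones. Of 29 CEP genes, which build centrosomes, 26 were lower in clones and 7 were called lower. Of 13 IFT genes, which carry cargo along cilia, 11 were lower and 4 were called. All 8 GOLGA genes tested were lower and 4 were called, although several are near-identical copies. Of 10 HDAC genes 8 were lower and 3 were called. Over all genes 42.5% were higher and 5.6% were called lower.

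By chromosome, the median difference between a clone and its population of origin, less that of all genes, stayed within 0.1 on the log2 scale in all 4 clones except for chromosome 15 in Clone 3, at -0.17. The genes with the largest spread over clones also included IGFBP7, which was listed at 0 in Clone 3, and ROMO1, DDT and EEF1E1, whose zeros may be failed estimates.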
